A study of Drosophila melanogaster with 42 samples.

Results

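Chromatin accessibility was compared between cic6 and wild-type (OreR) fruit fly embryos aged 2.5 to 3 h after egg laying, at 20935 regions of the genome and in the peak list of each library. The libraries were chosen by their titles, 3 of cic6 and 3 of OreR in that window, which is 6 of the 42 libraries of the study. The assay was ATAC-seq, in which the transposase Tn5 inserts adapters into open DNA, and fragments pile up where chromatin is accessible. The whole study covers 4 genotypes in windows of early development.

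The 3 wild-type libraries came from the Oregon-R stock, called OreR, with no mutation named. The 3 cic6 libraries came from embryos whose genotype label reads cic6 and nothing more, and the labels give neither the nature of the lesion, nor the rest of the stock's genotype, nor whether the mother or the embryo carried it. All 6 libraries were made from pools of 40 whole embryos, sorted by hand and aged at 25 °C, and no treatment was given. Beside them stand 3 OreR and 3 cic6 libraries of the window 2 to 2.5 h, made in the same way, and 3 libraries of gd7 embryos at 2.5 to 3 h, which carry a mutation in a gene the mother must supply for the Dorsal gradient to form. Differences between the cic6 and OreR stocks other than cic itself cannot be told apart from the effect of the mutation, because each genotype is represented by a single stock. Each library mixes all cells of the embryo, so more open chromatin per cell and more cells with open chromatin cannot be told apart either. Nothing in the labels says that the 3 libraries of a group came from separate cages, so the p-values measure the spread between these libraries. The number of reads per library is unknown here.

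The gene cic encodes Capicua, a DNA-binding repressor with an HMG box. In the early embryo the receptor Torso at the poles, and the EGF receptor along the flanks, signal through the MAP kinase pathway and relieve repression by Capicua, so that genes such as tll and hkb are transcribed at the poles and ind in the lateral ectoderm. Embryos without maternal Capicua are known for an expanded terminal domain at the expense of the segmented trunk.

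At the genes that signalling relieves from Capicua, accessibility was higher in cic6 where it differed. Regions of the terminal and gut genes tll, hkb, byn, fkh, cad and srp were higher, but none at cad was called with the trend described below removed. A rise was not particular to these genes. The median log2 fold change was 0.40 at byn, fkh, cad and srp and 0.45 at cellularization genes in the authors' deposited table. Parts of the trunk genes Kr and Ubx and a region of the pair-rule gene opa were lower. Other genes held lower calls too: 4 of 25 regions at Antp, 7 of 16 at rl and 6 of 14 at ths. Each of these genes held 1 higher call as well in the authors' deposited table. The gap, pair-rule and Hox lists, of 22, 42 and 89 regions, held 4, 3 and 10 lower calls beside 4, 3 and 11 higher ones there. Their lower shares were 18.2%, 7.14% and 11.2% and their higher shares 18.2%, 7.14% and 12.4%. All regions had 13.7% and 14.0%. With the trend described next removed, these lists held 4, 5 and 12 lower calls beside 2, 1 and 5 higher ones. All regions then had 9.43% lower and 11.8% higher calls. Most changes were small, and part of them followed a trend across all regions: strongly accessible regions were higher in cic6 and weakly accessible ones lower. The largest difference lay at w, where a peak present in every OreR library was missing from every cic6 library. The values follow.

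The peak lists were compared first. The 3 OreR lists held 42841, 43040 and 55199 peaks and the 3 cic6 lists 48726, 50599 and 42055. The groups overlapped, with means of 47027 ± 7078 and 47127 ± 4491 (SD, n = 3 each), and the difference of 100 peaks had p = 1 in a two-sided exact permutation test, where 3 libraries against 3 cannot give less than 0.1. That difference was positive without cic6 replicate 3 or OreR replicate 3 and negative without any of the other libraries, between -1993 and 4186.

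Peak widths were lower on average in cic6, but the groups overlapped. The median peak width was 563, 512 and 411 bp in the OreR libraries and 418, 413 and 362 bp in the cic6 libraries, and the widest cic6 value lay just above the narrowest OreR value. The means were 495 ± 77.4 and 398 ± 31.0 bp (SD, n = 3 each), a difference of -97.7 bp with exact permutation p = 0.3. With all lists shortened to 42055 peaks by −log10 p, the difference was -96.7 bp and the groups no longer overlapped (exact permutation p = 0.1, the smallest possible). Peaks covered 31.0, 29.0 and 29.9 Mb in OreR and 26.7, 27.6 and 19.9 Mb in cic6. The median of the authors' fold enrichment over background was 2.24, 2.08 and 2.41 in OreR and 2.50, 2.53 and 2.96 in cic6. Fold enrichments given below are the authors' value for each peak and serve as description only, because the cic6 lists stood higher in general.

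Most wild-type peaks were present in cic6. Of the peaks shared by a pair of OreR libraries, a held-out OreR library overlapped 89.1%, 87.2% and 94.7%, and the cic6 libraries 87.6%, 89.1% and 77.6%. The means were 90.3% ± 3.93 and 84.8% ± 6.28 (SD, n = 3 each), a difference of -5.55 percentage points with exact permutation p = 0.5. It came largely from cic6 replicate 3, which had the lowest share, the shortest list and the narrowest peaks, and was -1.95 points without it. Of the 12 tested regions near the cellularization genes nullo, bnk, Sry-alpha and halo, which are transcribed as the blastoderm forms cells, 11 had a peak in all 6 libraries, as did 80.2% of all tested regions, so this says little about stage. No tested region lay near slam.

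**Figure D1:**
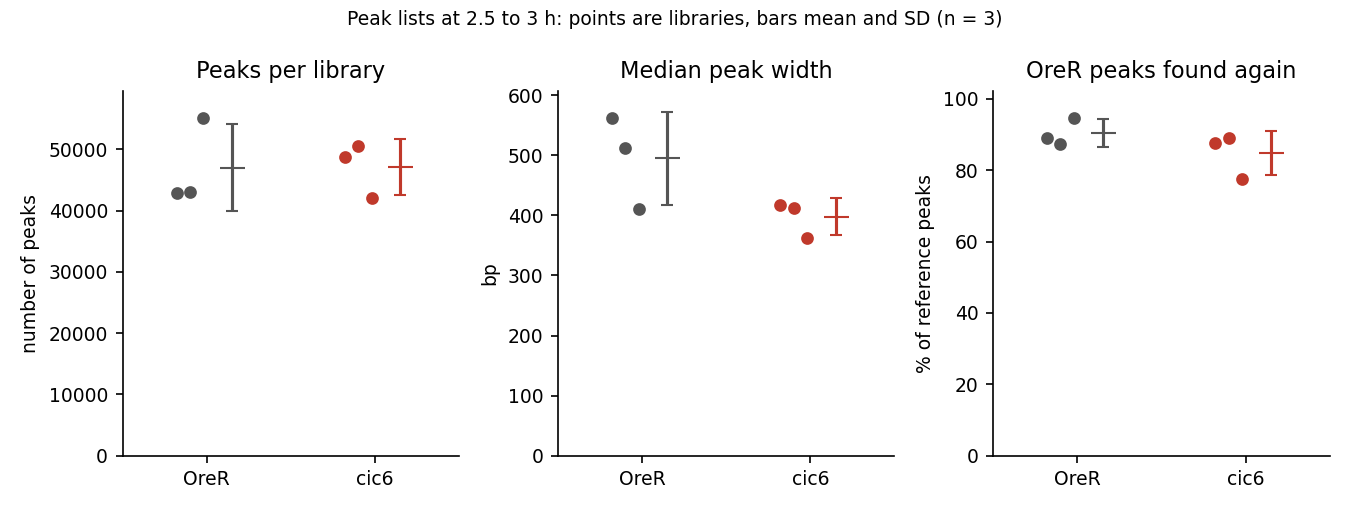
Number of peaks, median peak width in bp and share of OreR reference peaks found again in %, for the 3 OreR and 3 cic6 libraries of 2.5 to 3 h. Points are libraries and bars give the mean and SD (n = 3). The groups overlap in all 3 measures, and cic6 replicate 3 is the lowest cic6 library in each.

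The authors' comparison of the same libraries then gave a log2 fold change of cic6 over OreR for each region of 2114 bp. Of the 20935 regions, 5794 (27.7%) were called at an adjusted p under 0.05 in the authors' deposited table, 2866 lower (13.7%) and 2928 higher (14.0%) in cic6. Among these calls, 4016 (69.3%) were smaller than 0.5 on the log2 scale. A change of at least 1 was called at 175 regions lower and 74 higher in the authors' deposited table. Among these regions large falls outnumbered large rises, while the calls as a whole were evenly split. The regions were built on wild-type peaks per the authors' file names, and most peaks found only in cic6 lay outside them. The counts of large falls and large rises are therefore not on equal terms.

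The direction of change followed the level of accessibility. All regions were ordered by mean normalized count and split into 5 groups of equal size, and from the lowest to the highest group the median log2 fold change in the authors' deposited table was -0.17, -0.10, -0.03, 0.06 and 0.16. The share of regions called higher rose over these groups from 3.10% to 24.7%, and the share called lower fell from 19.4% to 3.22%. The regions near known Capicua targets had a median mean normalized count of 3028, against 873 over all regions. A second set of values was therefore computed with a running median taken away, over the 500 regions on either side in the order of mean count, called trend-removed below. It left 1975 lower calls (9.43%) and 2460 higher calls (11.8%). The authors' deposited table shared 1724 and 2035 of them.

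**Figure D2:**
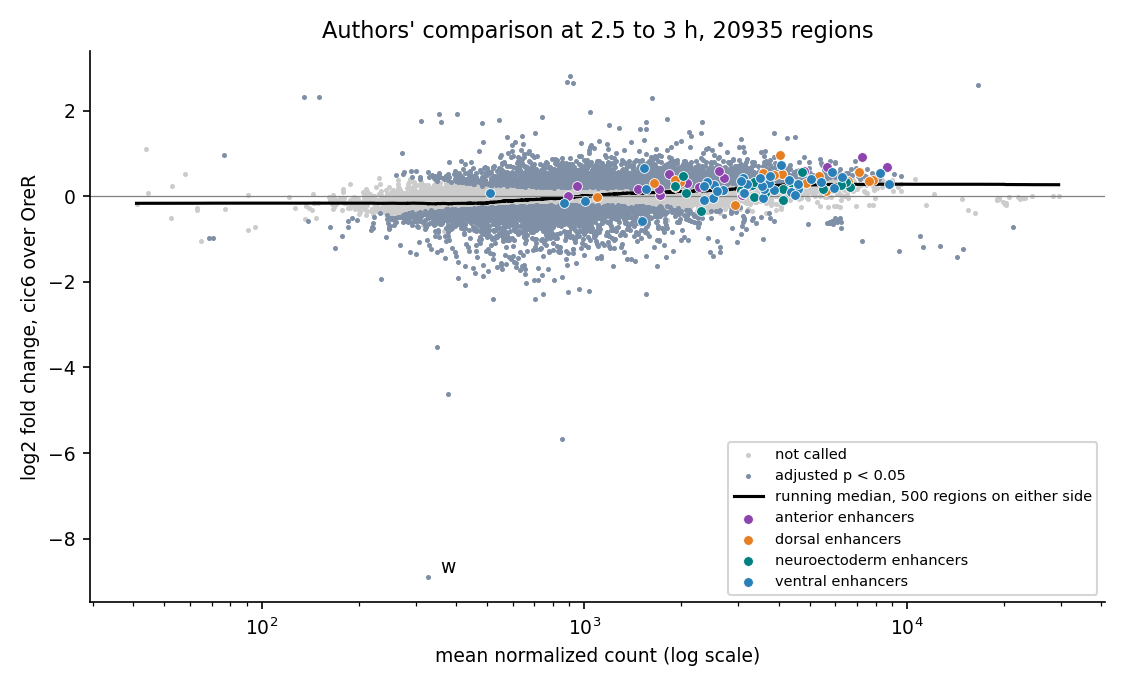
Log2 fold change of cic6 over OreR against mean normalized count (log axis) for all 20935 tested regions in the authors' deposited table at 2.5 to 3 h. Grey points are regions not called, blue-grey points have an adjusted p under 0.05, coloured points are the authors' named enhancers by class, and the black line is the running median over the 500 regions on either side. The line rises with the mean count, the enhancers lie towards the right, and the region in w lies lowest at -8.91.

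Chromosomes differed in the balance of calls. On the X, 18.6% of the 3757 tested regions were called higher and 7.37% lower in the authors' deposited table, with a median log2 fold change of 0.07. On 2L the order was opposite, with 12.6% of 3729 regions higher and 18.2% lower in the authors' deposited table and a median of -0.06. The difference remained in the trend-removed values, where the X had 739 higher and 200 lower calls and a median of 0.12.

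Capicua's known target genes come next, with every tested region within 10 kb of them. Of the 17 regions at tll, hkb, ind, zen and wntD, 9 were called higher and none lower in the authors' deposited table, where all regions had 14.0% and 13.7%. Their median log2 fold change was 0.35 in the authors' deposited table, against -0.02 over all regions. The trend-removed median was 0.12, with 5 regions called higher and none lower, where all regions had 11.8% and 9.43%. The genes differed among themselves: all 3 regions at tll and all 4 at hkb were called higher in the authors' deposited table, 1 of 3 at zen, 1 of 4 at wntD and 0 of 3 at ind.

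The gene tll encodes a nuclear receptor that specifies both ends of the embryo. Its region nearest the gene, the enhancer tll_(+1) at 3R:30851030-30853143 (dm6), had the highest value of the 17, with a log2 fold change of 0.92 (SE 0.16, adjusted p 3.8e-07) in the authors' deposited table and 0.64 trend-removed (adjusted p 0.00085). The fold enrichment of the peak there was 3.69, 4.07 and 4.76 in OreR and 3.85, 4.07 and 4.96 in cic6. The peak heights thus overlapped between the groups, although the count over the whole region was higher. At the neighbouring enhancer tll_(+2), 3R:30848778-30850891, the log2 fold change was 0.46 (SE 0.15, adjusted p 0.0097) in the authors' deposited table and 0.21 (adjusted p 0.34) trend-removed. The third region, at 3R:30844518-30846631, had 0.30 (adjusted p 0.035) in the authors' deposited table and 0.19 (adjusted p 0.26) trend-removed. Only tll_(+1) of the 3 thus kept its call without the trend.

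The gene hkb encodes a zinc-finger repressor that works beside tll at the poles. Its enhancer hkb_(+6), at 3R:4340322-4342435, had fold enrichments of 1.82, 1.70 and 1.80 in OreR and 2.60, 2.55 and 2.63 in cic6, with no overlap between the groups. The log2 fold change was 0.59 (SE 0.10, adjusted p 1.9e-07) in the authors' deposited table and 0.44 (adjusted p 0.00018) trend-removed. The enhancer hkb_(-2), at 3R:4346601-4348714, had fold enrichments of 3.06, 3.21 and 3.96 in OreR and 4.06, 3.69 and 4.34 in cic6. These ranges overlapped, and the log2 fold change was 0.69 (SE 0.14, adjusted p 6.9e-06) in the authors' deposited table and 0.41 (adjusted p 0.017) trend-removed. The other regions near hkb had 0.28 and 0.37 in the authors' deposited table, and the second of these, at 3R:4353132-4355245, kept its call without the trend.

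The gene ind encodes a homeodomain protein of the intermediate column of the neuroectoderm. Its enhancer, at 3L:15039134-15041247 inside Sytbeta, had fold enrichments of 3.55, 3.33 and 4.52 in OreR and 4.42, 4.81 and 5.79 in cic6. The highest OreR peak lay above the lowest cic6 peak, and the log2 fold change of 0.35 (SE 0.18, adjusted p 0.14) was not called in the authors' deposited table. In the earlier window, with other libraries of both genotypes, it was 0.94 (SE 0.18, adjusted p 2.9e-06) in the authors' deposited table. The difference of -0.59 between the windows had a standard error of 0.26 and did not pass the test over all regions (adjusted p 0.5), so the windows were not shown to differ.

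At zen, a homeobox gene of the dorsal midline, the distal enhancer at 3R:6753932-6756045 had fold enrichments of 3.49, 3.51 and 3.94 in OreR and 4.84, 5.07 and 5.10 in cic6. The log2 fold change there was 0.35 (SE 0.17, adjusted p 0.11) in the authors' deposited table, without a call. The region inside the neighbouring gene zen2, at 3R:6742269-6744382, was called, with 0.56 (SE 0.11, adjusted p 6.2e-06) in the authors' deposited table and 0.43 trend-removed. The gene wntD encodes a secreted Wnt protein that limits Dorsal signalling. Its enhancer at 3R:13292852-13294965 had fold enrichments of 5.31, 4.97 and 7.11 in OreR and 8.35, 8.32 and 10.2 in cic6, which do not overlap. The log2 fold change was 0.39 (SE 0.14, adjusted p 0.027) in the authors' deposited table and 0.13 (adjusted p 0.59) trend-removed. Of the regions near zen and wntD, only the one in zen2 was thus called both with and without the trend.

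Inside cic itself 10 regions were tested. Their log2 fold changes ran from -0.82 to 0.43 in the authors' deposited table, so no loss of accessibility across the gene was seen. The lowest, at 3R:20268327-20270440, was -0.82 (SE 0.11, adjusted p 8.7e-12) in cic6 and -1.46 in gd7 in the authors' deposited tables. The highest, at 3R:20274479-20276592, was 0.43 (SE 0.10, adjusted p 0.00015) in cic6 and 0.08 in gd7 in the authors' deposited tables. The gd7 embryos were compared with the same 3 OreR libraries, so a feature of those libraries and one of both mutants cannot be told apart. Accessibility at cic does not check the genotype, since the labels do not describe the lesion.

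The gut and posterior genes that act with tll and hkb rose at most of their regions. Of the 17 regions at byn, fkh, cad and srp, 14 were called higher (82.4%, against 14.0% of all regions) and none lower in the authors' deposited table. Without the trend 7 of the 17 were called higher, beside 11.8% of all regions. The median log2 fold change was 0.40 in the authors' deposited table and 0.29 trend-removed. At srp, the GATA factor of the endoderm and blood, all 4 regions were called higher, between 0.53 and 0.84, in the authors' deposited table. The region inside srp at 3R:16002188-16004301 had fold enrichments of 1.83, 1.46 and 1.99 in OreR and 2.17, 2.32 and 2.31 in cic6, with every cic6 value above every OreR value. Its log2 fold change was 0.69 (SE 0.08, adjusted p 3.4e-15) in the authors' deposited table.

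At fkh, a forkhead factor of the gut, all 3 regions were called higher in the authors' deposited table. The one at 3R:28587588-28589701 had fold enrichments of 2.07, 2.04 and 2.74 in OreR and 2.75, 2.73 and 3.03 in cic6, which nearly separate the groups. The log2 fold change there was 0.83 (SE 0.11, adjusted p 2.5e-12) in the authors' deposited table. At byn, the T-box factor of the hindgut, 4 of 5 regions were called higher, with values from 0.03 to 0.71 in the authors' deposited table. At cad, the homeobox gene of the posterior, 3 of 5 regions were called higher in the authors' deposited table and 0 of 5 without the trend, while byn had 2 calls, fkh 2 and srp 3 without it.

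Along the trunk the picture was mixed, and genes differed from one another. Of 22 regions at the gap genes hb, Kr, kni, knrl and gt, 4 were called lower and 4 higher (18.2% each) in the authors' deposited table. All regions had 13.7% lower and 14.0% higher there. At Kr, the central gap gene and a target of repression by tll, 3 of 5 regions were called lower and none higher, between -0.62 and 0.05, in the authors' deposited table, and the same number was called lower without the trend. The region at 2R:25232575-25234688, within 10 kb of Kr and inside CG9380, had a log2 fold change of -0.53 (SE 0.09, adjusted p 1.6e-07) in the authors' deposited table. Its fold enrichment was 2.32, 2.29 and 4.35 in OreR and 2.89, 3.38 and 4.23 in cic6, so the peak heights did not show the fall in the region's count. At hb, the anterior gap gene, 3 of 4 regions were called higher and none lower, up to 0.67, in the authors' deposited table, and 1 was called without the trend. Of the other gap genes kni had 1 region called higher and knrl 1 called lower in the authors' deposited table, and gt had none called.

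Head gap genes held higher calls and no lower ones. Of 14 regions at oc, ems and btd, 7 (50%, against 14.0% of all regions) were called higher and none lower in the authors' deposited table. Without the trend 3 were called higher. The 7 regions at oc and the 4 at btd lie on the X, where 18.6% of tested regions were called higher in the authors' deposited table. Without the trend 739 of the 3757 regions on the X were called higher, so the 3 calls were near the share of that chromosome. At oc, the homeobox gene of the head, 4 of 7 regions were called higher in the authors' deposited table. The region at X:8623963-8626076 had fold enrichments of 7.16, 6.91 and 10.9 in OreR and 11.9, 12.4 and 13.6 in cic6. Every cic6 peak there was higher, and the log2 fold change was 0.52 (SE 0.15, adjusted p 0.0034) in the authors' deposited table.

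The Hox genes, which give segments their identity, held calls in both directions. Of 89 regions, 10 were called lower (11.2%) and 11 higher (12.4%) in the authors' deposited table, close to the shares of all regions. Without the trend 12 were called lower and 5 higher, where all regions had 9.43% and 11.8%. At lab 3 of 6 regions and at pb 3 of 9 were called higher and none lower in the authors' deposited table. Without the trend 1 and 3 were called higher. The regions at pb include the one in zen2 described above. At Scr 1 of 9 regions and at Dfd 0 of 5 were called higher and none lower in the authors' deposited table. Without the trend neither had a higher call, and Dfd had 1 lower call. At Ubx, of the thorax and abdomen, 5 of 16 regions (31.2%, against 13.7% of all regions) were called lower and none higher in the authors' deposited table. At Antp, of the thorax, 4 of 25 regions (16.0%) were called lower, near the share of all regions, and 1 higher in the authors' deposited table. Without the trend the lower calls numbered 5 and 4. At Abd-B, the most posterior gene, 3 of 10 regions were called higher and none lower in the authors' deposited table, and 1 without the trend. The remaining Hox gene, abd-A, had 1 of 9 regions called lower and none higher in the authors' deposited table, and 2 lower without the trend.

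The Hox region with the largest fall lay inside Ubx at 3R:16683940-16686053, with a log2 fold change of -0.79 (SE 0.12, adjusted p 2.7e-10) in the authors' deposited table. In the earlier window it was -0.41 in the authors' deposited table, and the windows did not differ by the test over all regions (adjusted p 0.49). Its fold enrichment was 3.16, 2.42 and 3.79 in OreR and 3.71, 4.28 and 4.69 in cic6, again without a fall in peak height.

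**Figure D3:**
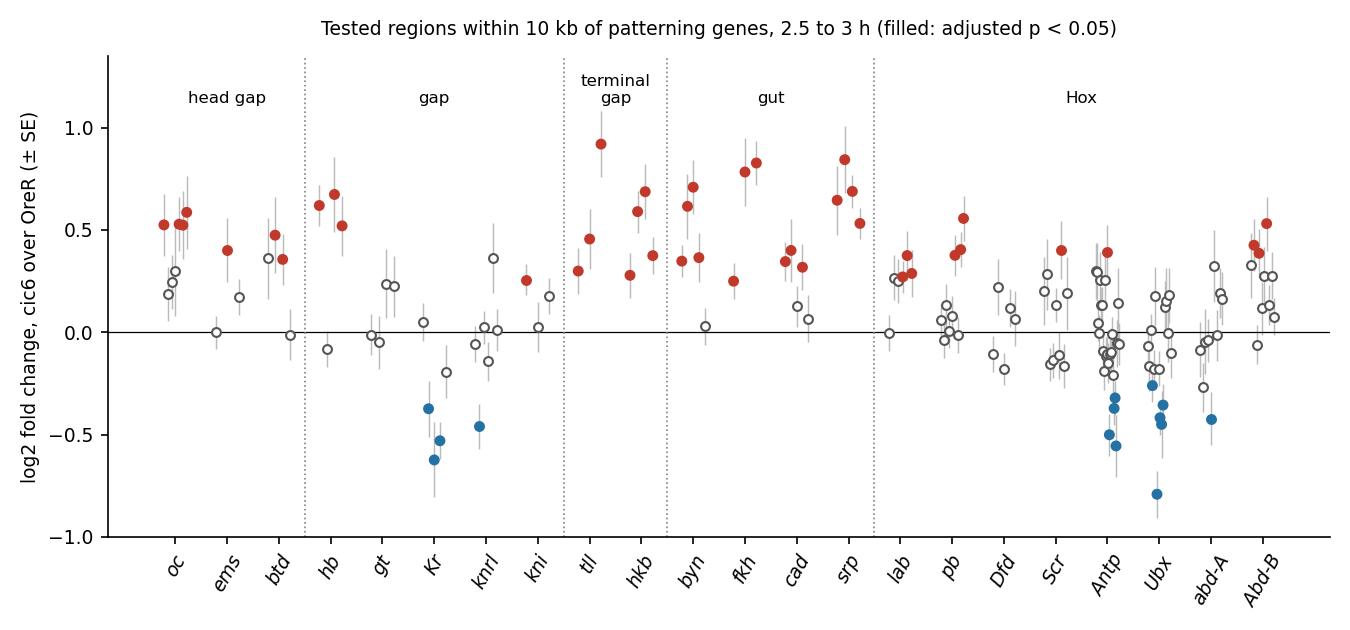
Log2 fold change of cic6 over OreR with its standard error for every tested region within 10 kb of head gap, gap, terminal, gut and Hox genes at 2.5 to 3 h, from the authors' deposited table. Filled points have an adjusted p under 0.05, red higher and blue lower in cic6. The terminal and gut genes hold no blue point, and their red points run from 0.25 to 0.92, while the blue points lie at Kr, knrl, Antp, Ubx and abd-A.

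Among the pair-rule genes, which lay out the segments in stripes, few regions changed. Of 42 regions, 3 were called lower and 3 higher (7.14% each) in the authors' deposited table, and none at eve, ftz, odd, prd or run. All regions had 13.7% lower and 14.0% higher there. Without the trend 5 of the 42 were called lower, 1 of them at odd, and 1 higher, with a trend-removed median of -0.20. All regions then had 9.43% lower and 11.8% higher calls. The exception in size was opa, which encodes a zinc-finger factor that acts late in segmentation and opens chromatin. Inside opa, at 3R:4867540-4869653, the log2 fold change was -1.05 (SE 0.13, adjusted p 1.7e-14) in the authors' deposited table. In the earlier window it was -0.25 (SE 0.13, adjusted p 0.098) there. The difference between the windows was -0.80 (SE 0.18) with an adjusted p of 0.016, so the fall was larger in the later window. The fold enrichment in the later window was 1.91, 1.71 and 2.00 in OreR and 1.77, 1.58 and 1.98 in cic6, which overlap. In gd7 at 2.5 to 3 h the log2 fold change was -0.06 in the authors' deposited table. Segment polarity genes had 5 of 29 regions (17.2%, near the 14.0% of all regions) called higher and none lower in the authors' deposited table, 3 of them at hh, which encodes the Hedgehog signal. Without the trend 2 were called higher, 1 of them at hh, and 1 lower.

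Within the torso and EGF receptor pathway, 23 of 89 regions were called higher (25.8%) and 12 lower (13.5%) in the authors' deposited table, where all regions had 14.0% and 13.7%. Without the trend 12 were called higher and 12 lower, where all regions had 11.8% and 9.43%. The higher share of the list was then near that of all regions. Among the genes with most higher calls, aos, a secreted inhibitor of the EGF receptor, had 4 of 6 regions called higher in the authors' deposited table, pnt, an ETS activator, 5 of 8, and aop, an ETS repressor, 4 of 8. Without the trend aos kept 2, pnt 2 and aop 3 higher calls. At aos the region 3L:16475599-16477712 had fold enrichments of 2.98, 2.49 and 4.14 in OreR and 4.77, 4.76 and 4.55 in cic6, all above OreR. Its log2 fold change was 0.90 (SE 0.11, adjusted p 7.2e-16) in the authors' deposited table. The receptor gene Egfr held a region at 2R:21527922-21530035 with fold enrichments of 1.69, 1.82 and 2.47 in OreR and 3.12, 3.09 and 3.48 in cic6. Again the groups did not overlap, and the log2 fold change was 0.68 (SE 0.08, adjusted p 7.4e-16) in the authors' deposited table. At rl, the MAP kinase gene, 7 of 16 regions were called lower and 1 higher in the authors' deposited table, and 6 and 0 without the trend. At vn 2 of 8 regions were called lower and none higher, both in the authors' deposited table and without the trend.

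At dorsoventral genes outside the neuroectoderm the calls were higher ones. Of 52 regions at genes of the dorsal ectoderm and amnioserosa, 22 (42.3%) were called higher and none lower in the authors' deposited table. Without the trend 15 were called higher. All regions had 14.0% higher and 13.7% lower calls in the authors' deposited table, and 11.8% and 9.43% without the trend. Doc2, a T-box gene of the amnioserosa, had 3 of 3 regions called higher, between 0.51 and 0.72, in the authors' deposited table, and ush, a GATA cofactor, 4 of 13. Inside ush, at 2L:530529-532642, the fold enrichment was 2.84, 2.00 and 3.05 in OreR and 4.88, 4.59 and 4.81 in cic6. All cic6 peaks were higher than all OreR peaks, and the log2 fold change was 0.55 (SE 0.09, adjusted p 1.5e-08) in cic6 and 0.65 in gd7 in the authors' deposited tables. In the mesoderm list 11 of 35 regions (31.4%) were called higher and none lower in the authors' deposited table. Of these, 8 lay among the 10 regions at Mef2, a factor of muscle development, and without the trend 11 regions of the list, 8 of them at Mef2, were called higher.

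At neuroectoderm genes lower calls outnumbered higher ones, while the median was near 0. Of 59 regions, 15 were called lower (25.4%, against 13.7% of all regions) and 7 higher (11.9%, against 14.0%) in the authors' deposited table. Without the trend 11 of the 59 were called lower and 3 higher, where all regions had 9.43% and 11.8%. The median log2 fold change of the 59 was 0.00 in the authors' deposited table. In the earlier window the balance of calls was opposite, with 8 lower and 26 higher in the authors' deposited table, where all regions had 22.8% and 26.2%. The ribosomal protein genes turned in the same way, from 6 lower and 24 higher calls to 9 and 5, so the turn was not particular to the neuroectoderm. The gene ths, an FGF ligand, held 6 of the lower calls among 14 regions in the authors' deposited table, and D, a Sox factor, 3 of 5. The lowest value for D, at 3L:14169435-14171548, was -0.39 (SE 0.09, adjusted p 6.6e-05) in the authors' deposited table. Its fold enrichment was 1.68, 1.93 and 2.32 in OreR and 1.72 and 2.02 in cic6 replicates 1 and 2, and replicate 3 had no peak there. Against these, the enhancer Dr at 3R:29547096-29549209, of a homeobox gene of the lateral column, was higher by 0.46 (SE 0.10, adjusted p 2.7e-05) in the authors' deposited table.

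Genes active in all cells or all over the early embryo were read beside these lists. Of 12 regions at cellularization genes 7 (58.3%, against 14.0% of all regions) were called higher and none lower in the authors' deposited table. Without the trend 3 of the 12 were called higher, beside 11.8% of all regions. The median log2 fold change of the 12 was 0.45 in the authors' deposited table. It was 0.40 for the terminal and gut genes, 0.36 for the head gap genes and 0.24 for the genes of the dorsal ectoderm and amnioserosa. Cellularization genes are not known as Capicua targets. Of 60 regions at ribosomal protein genes 5 (8.33%) were called higher and 9 (15%) lower in the authors' deposited table, with a median of 0.05. The lowest of these, at 3L:23088189-23090302 near RpL10, was -1.28 (SE 0.13, adjusted p 4.4e-20) in the authors' deposited table. At the pioneer factor genes zld, Trl and Clamp, 1 of 15 regions was called higher and 1 lower (6.67% each) in the authors' deposited table. Neither list exceeded the higher share of all regions, and the lower share of the ribosomal protein genes was near that of all regions.

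**Figure D4:**
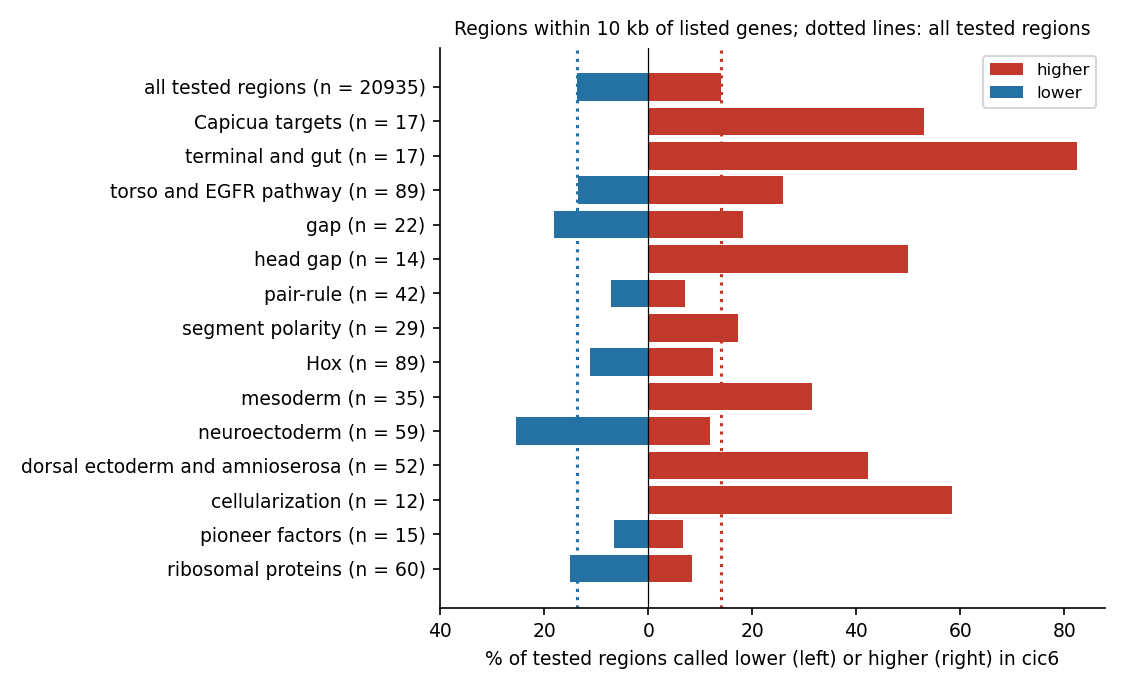
Share of tested regions within 10 kb of listed genes that were called lower (blue, left) or higher (red, right) in cic6 at an adjusted p under 0.05 in the authors' deposited table. Dotted lines mark the shares of all 20935 regions, 13.7% and 14.0%. Terminal and gut genes reach 82.4% higher and no lower call, and neuroectoderm genes have the largest share of lower calls, 25.4%.

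The authors' named enhancers of 4 classes were read in the same way. Of 18 anterior enhancers 9 (50%) and of 19 dorsal enhancers 9 (47.4%) were called higher in the authors' deposited table, and none of either lower. All regions had 14.0% higher and 13.7% lower there. The called anterior enhancers include tll_(+1), tll_(+2), hkb_(+6) and hkb_(-2), already counted among the Capicua targets, so the class is not a separate result. Among 37 ventral enhancers 13 (35.1%) were called higher and 1 lower in the authors' deposited table, and among 21 neuroectoderm enhancers 2 (9.52%) higher and 1 lower. Without the trend, a comparison added after the table had been read, the higher calls numbered 4, 3, 2 and 1 in the anterior, dorsal, ventral and neuroectoderm classes. The anterior ones were tll_(+1), hkb_(+6), hkb_(-2) and oc_intronic_distal, the last on the X. Over all regions 11.8% were called higher without the trend. The dorsal share was then near that of all regions, and the ventral and neuroectoderm shares were below it. The dorsal enhancer with the highest value, VT9677_Kvon, had a log2 fold change of 0.96 (SE 0.13, adjusted p 6.3e-12) in the authors' deposited table. The lowest of all 4 classes was the ventral enhancer Ilp4_Stathopoulos, with -0.59 (SE 0.11, adjusted p 3.7e-06) in the authors' deposited table. Both were singled out after their values were seen.

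The same enhancers were compared between the windows. From the earlier to the later window, the median log2 fold change of the anterior class was 0.63 and 0.36 in the authors' deposited table, that of the dorsal class 0.80 and 0.35, of the ventral class 0.62 and 0.25, and of the neuroectoderm class 0.59 and 0.23. All 4 medians were thus nearer to 0 in the later window, in libraries that the windows do not share. So were the medians of every gene list, among them the ribosomal protein genes (0.18 and 0.05) and the pioneer factor genes (0.36 and 0.15). The drop was therefore not particular to the enhancers. Over all regions the median was -0.02 in both windows in the authors' deposited table. Over all regions, 31 (0.148%) had a log2 fold change that differed between the windows at an adjusted p under 0.05 (Wald test with Benjamini-Hochberg adjustment), and 2010 (9.60%) at an unadjusted p under 0.05. Of the 31 regions, 7 had a higher and 24 a lower value in the later window. Among regions called lower at 2.5 to 3 h 79.1%, and among those called higher 84.4%, were called the same way in the earlier window in the authors' deposited table, which called 22.8% of all regions lower and 26.2% higher. Read the other way, 47.4% of the lower and 45.1% of the higher calls of the earlier window were called the same way in the later one, and 6 regions in all were called in opposite directions.

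**Figure D5:**
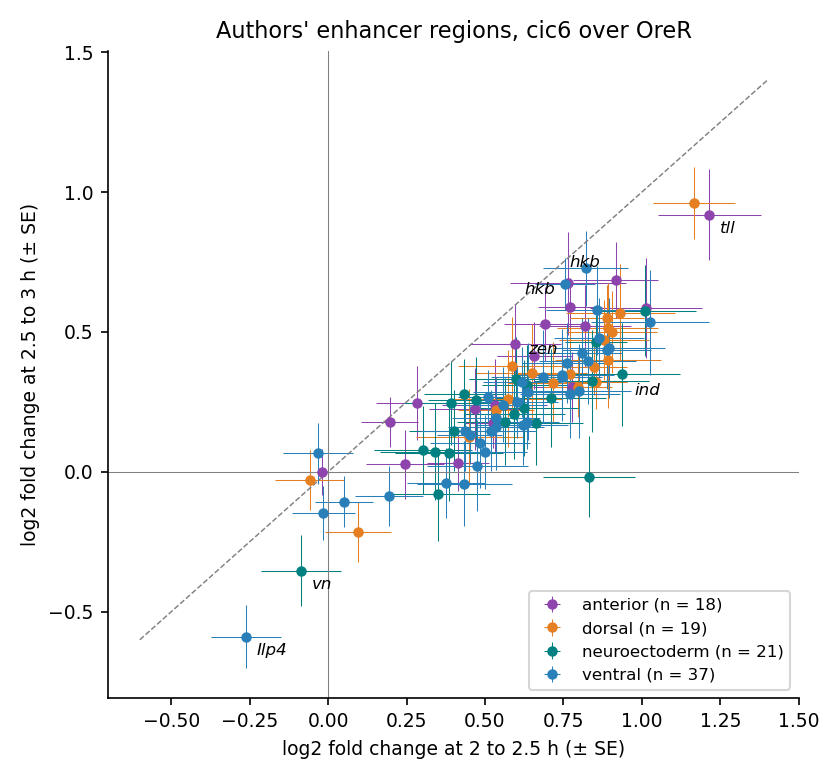
Log2 fold change of cic6 over OreR at 2.5 to 3 h against that at 2 to 2.5 h for the authors' enhancers of 4 classes, from the authors' deposited table, with standard errors. The dashed line marks equal values. Most points lie below it and to the right of 0, with tll_(+1) at 1.21 and 0.92 and ind at 0.94 and 0.35.

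The largest single differences lay away from the patterning genes, and 8 of the 10 lowest regions were more than 10 kb from any protein-coding gene. The lowest value of all was at X:2795031-2797144, inside w and within the longer span of kirre, where w encodes a transporter for eye pigments. The fold enrichment of the peak there was 3.09, 2.77 and 4.74 in the OreR libraries, and no cic6 library had a peak in either window, while all 3 gd7 libraries had one. The log2 fold change was -8.91 (SE 0.73, adjusted p 1.05e-31) in cic6 and -0.11 in gd7 in the authors' deposited tables. A fitted change of this size implies counts near 0 in cic6 and does not measure how much lower the count was.

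The next lowest region, 2L:20204117-20206230, had fold enrichments of 3.19, 3.52 and 3.97 in OreR and no peak in any cic6 library of the window. Its log2 fold change was -5.67 (SE 0.26) in cic6 and -0.05 in gd7 in the authors' deposited tables. At X:21767587-21769700 the values were -4.61 and 0.26, and at X:21528799-21530912 they were -3.52 and 0.23, for cic6 and gd7 in the authors' deposited tables. Peak heights at these sites did not follow the fitted falls. At X:21767587-21769700 the fold enrichment was 1.97, 1.84 and 2.18 in OreR and 3.10 in cic6 replicate 2, with no peak in the other cic6 libraries. At X:21528799-21530912 it was 2.50, 2.26 and 2.96 in OreR and 2.72, 4.88 and 2.87 in cic6, which overlap. Among the 10 lowest regions, 4 were also called lower in gd7, each by at least 2.27 on the log2 scale, in the authors' deposited table, where 8.19% of all regions were called lower in gd7. These are the regions at 2R:5568894-5571007, 2R:5574670-5576783, 2L:17574105-17576218 and X:4848891-4851004. All 10 were called lower in the earlier window too in the authors' deposited table.

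Of the 10 highest regions, 8 were also called higher in gd7 in the authors' deposited table, where 3.81% of all regions were. The comparisons share their OreR libraries, so these counts give no measure of agreement between the mutants. At the start of 3L, 3 regions between 3219 and 14161 shared a single peak and had log2 fold changes of 2.65 to 2.81 in cic6 and 1.69 to 1.86 in gd7 in the authors' deposited tables. Near Best4, at 3L:15296541-15298654, the log2 fold change was 2.30 in cic6 and 3.52 in gd7 in the authors' deposited tables, with fold enrichments of 3.75, 5.21 and 6.77 in OreR and 13.3, 14.2 and 15.8 in cic6.

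In 2 of the 10 highest regions gd7 was not called higher. The first was inside msi, the Musashi RNA-binding protein gene, at 3R:25537952-25540065, with fold enrichments of 2.76, 2.15 and 2.62 in OreR, 10.1, 9.31 and 7.69 in cic6 and 2.94, 2.21 and 2.34 in gd7. Its peak was thus higher in every cic6 library than in any OreR or gd7 library. The log2 fold change was 1.97 (SE 0.10, adjusted p 5.1e-89) in cic6 and -0.68 in gd7 in the authors' deposited tables. The second, at 2R:25259096-25261209 near CG9380, had fold enrichments of 11.0, 11.4 and 14.8 in OreR and 15.2, 15.7 and 16.9 in cic6. Its log2 fold change was 2.59 (SE 0.28) in cic6 and -0.09 in gd7 in the authors' deposited tables. A high value does not always come with a peak: the region X:37958-40071 had 2.31 in the authors' deposited table but no listed peak in any of the 6 libraries, at a mean normalized count of 136.

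Presence and absence of peaks was then compared without reference to the fold changes. Of the tested regions, 132 (0.631%) had a peak in all 3 OreR libraries and in no cic6 library, and 14 (0.0669%) the reverse. Because the tested regions were built on wild-type peaks per the authors' file names, the second count was kept low by their choice. The 132 and the 14 are therefore not to be set against each other. Of the 132, 89 were also called lower and none higher in the authors' deposited table, with a median log2 fold change of -0.44, and 25 had the same pattern at 2 to 2.5 h. Both readings come from the same libraries. Without 1 library a region needs fewer absences or presences, and the 132 became 283 without cic6 replicate 1, 299 without cic6 replicate 2 and 200 without OreR replicate 2. The 14 became 36 without cic6 replicate 3, and 26, 22 and 86 without OreR replicates 1, 2 and 3.

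The strongest peak absent from cic6 was at 2R:2482475-2484588, with fold enrichments of 7.37, 7.27 and 9.32 in OreR and 3.20, 2.62 and 1.73 in gd7. Its log2 fold change was -1.81 (SE 0.14, adjusted p 3.0e-34) in the authors' deposited table. Inside CG42340, at X:6517966-6520079, OreR had fold enrichments of 3.79, 2.91 and 5.29, neither cic6 nor gd7 had a peak, and the log2 fold change was -1.95 in cic6 and -2.24 in gd7 in the authors' deposited tables. The absence of a peak did not always go with a lower count: at 3L:23866864-23868977, inside CG40470, OreR had fold enrichments of 4.48, 3.48 and 5.21 and cic6 no peak, while the log2 fold change was -0.12 (adjusted p 0.58) in the authors' deposited table.

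Over 62717 merged peaks of the 6 libraries, 971 (1.55%) were present in all OreR and no cic6 libraries and 712 (1.14%) in all cic6 and no OreR libraries. The tested regions were built on wild-type peaks per the authors' file names, and on the main chromosome arms 529 of 685 peaks found only in cic6 lay outside them. Of the 712, 205 were also present in all cic6 and no OreR libraries at 2 to 2.5 h, 169 were present in all gd7 libraries and 299 in none. The highest of these peaks lay inside Snap25, a gene for a protein of synaptic vesicle fusion, at 3L:24137713-24138190, with fold enrichments of 9.62, 10.7 and 8.57 in cic6. Another, at 3L:23198903-23199464 near nAChRalpha4, had 6.91, 7.27 and 7.72 in cic6 and no peak in gd7, while one at 2L:16859147-16859587 near CG31809, with 8.30, 8.45 and 8.27 in cic6, was present in all 3 gd7 libraries. These counts too moved with single libraries: the 971 became 1530 and 1710 without cic6 replicates 1 and 2, and 1802 and 1777 without OreR replicates 1 and 2, and the 712 became 1578 without cic6 replicate 3 and 1567 without OreR replicate 3.

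Regions that change with age in wild type were followed last, as a description of stage. Between 2 to 2.5 h and 2.5 to 3 h, 60 tested regions gained a peak in OreR, being absent from all 3 earlier and present in all 3 later libraries. The cic6 libraries of 2.5 to 3 h had a peak at 46, 51 and 47 of them (76.7%, 85.0% and 78.3%), and those of 2 to 2.5 h at 37, 36 and 37. Over all tested regions the share with a peak was 93.5%, 93.7% and 86.2% in the later cic6 libraries. In the opposite direction 117 regions lost their peak in OreR, and the later cic6 libraries had a peak at 32, 27 and 15 of them, against 50, 73 and 101 in the earlier ones. In gd7 at 2.5 to 3 h the numbers were 49, 36 and 46 of the 60, and 40, 36 and 33 of the 117. Most regions that opened in wild type were thus open in the cic6 libraries of the same window, and most that closed were closed, with the OreR values fixed by the choice of regions.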

How the data were processed

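The members, gene lists and comparisons were chosen with earlier results of these data known. Per the submitters' processing notes, which give names without roles or settings, Bowtie2 2.3.5.1, Picard 2.23.8, MACS2 2.2.7.1, DESeq2 and the build dm6 were used. The authors deposited a peak list for each library, called on each sample separately, with a fold enrichment (a ratio), a score, and the −log10 of a p-value and a q-value. They also deposited a table of comparisons of cic6 with OreR in each window, holding a mean normalized count (a signal scaled over libraries), a log2 fold change with its SE, the Wald statistic (a score), and p-values before and after adjustment. The adjusted p-values equal a Benjamini-Hochberg adjustment of the deposited p-values. The sources used here do not give how reads were counted, whether they were shifted for Tn5, or the size factors. No counts per library were used, so the edgeR test that the plan held for such counts was not run, and the depth per library is unknown.

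Computed here, with Python 3.11.15, numpy 2.4.6, pandas 2.3.3 and scipy 1.17.1, were two-sided exact permutation tests over libraries, peak overlaps of at least 1 bp, Wald tests of differences between windows, and the trend-removed values with p-values recomputed from the deposited SE. The scripts were tested on simulated data. Regions belong to a gene when their midpoint lies within 10 kb of it in the RefSeq gene table of Release 6. Of 105 listed genes, 103 matched by symbol and 2 by synonym, and neighbouring genes can share regions. Named regions are the 10 lowest and 10 highest called, all near the 5 Capicua targets or inside cic, the 2 of lowest adjusted p per list, the 5 whose windows differ most, and the 5 strongest peaks found in only 1 genotype in each direction. No genome sequence was used, so motif shares were not computed and no sequences are shown. Alternatives covered single libraries, thresholds, list length, overlap, scaling, the trend, low counts, gene distance and the replicate block.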

Additional observations from a re-analysis of the deposited data

Results flagged for a closer look

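The following regions were singled out because the log2 fold change of cic6 over OreR differed between the 2 windows by the Wald test over all regions, each given as the value at 2.5 to 3 h minus that at 2 to 2.5 h. In w the difference was -3.81 (SE 0.77, adjusted p 0.0030), between fitted values of -8.91 and -5.10 in the authors' deposited table that both rest on cic6 libraries without a peak. In opa it was -0.80 (adjusted p 0.016). In sano the difference was -0.65 (adjusted p 0.00095), from 0.43 to -0.22 in the authors' deposited table, the latter no longer called after centring (adjusted p 0.054). In CG45263 it was 0.97 (adjusted p 0.00095), from -0.56 to 0.40 in the authors' deposited table, so sano and CG45263 were called in opposite directions in the windows. Near CG31419 it was -0.69 (adjusted p 0.0015), with a later value of -0.60 in the authors' deposited table. Near trn it was -0.63 (adjusted p 0.0020) and near CG44435 -0.75 (adjusted p 0.0028), where the later values of -0.04 and 0.13 were not called in the authors' deposited table. No explanation of these differences was tested.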

How the results depend on the processing

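The difference in peak number changed sign without cic6 replicate 1 or 2 or OreR replicate 1 or 2 (range -1993 to 4186) and at a −log10 q of at least 5 (-123). Width and share differences kept their sign in every alternative, over single libraries from -140 to -63.8 bp and from -7.73 to -1.95 points. Asking that 0.5 of a reference peak be covered gave -9.18 points (exact permutation p = 0.1). Lower calls numbered 1876 at an adjusted p under 0.01 and 175 at a size of at least 1, and higher calls 1941 and 74. Of the calls 50.5% were higher, 54.9% after centring and 55.5% without the trend. Differing windows numbered 10 at an adjusted p under 0.01 and 11 without the trend. Regions with a peak in every OreR and no cic6 library numbered 276 at the stricter q, 225 in lists of equal length, 262 by summits in the central 500 bp and 146 to 299 without single libraries. The reverse numbered 29, 23, 98 and 17 to 86. For merged peaks single libraries gave 1220 to 1802 and 876 to 1578. Of regions near listed genes 33.1% were called, 23.6% without the trend, beside 27.7% and 21.2% of all regions. Of 82 named regions 63 were called, 56 of them without the trend, where 7 calls were lost and none reversed. Many named regions were chosen by their calls or adjusted p, so these counts do not measure how stable calls are in general. The causes of these shifts were not tested. Same-numbered libraries of the genotypes were not shown to be pairs: their deviations correlated at r = -0.00, 0.07 and 0.09, and OreR replicate 1 was nearest cic6 replicate 2. With the replicate block the differences stayed 100 peaks, -97.7 bp and -5.55 points by construction (exact sign-flip p = 1, 0.25 and 0.75, where 0.25 is the smallest possible).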
